A study of Mus musculus with 20 samples.

Results

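Interferon-stimulated genes other than those of the ISG15 conjugation machinery were followed as a set of 40 genes, picked by name from the 55401 genes of the count table. All 40 symbols were found, each with 1 identifier. RNA came from 5 organs (heart, kidney, liver, small intestine, and spleen) of female C57BL/6J mice aged 8 weeks, either wild type (WT) or carrying a CRISPR/Cas9 deletion of exons 3 and 4 of Nsun6, an mRNA m5C methyltransferase (KO). There were 2 WT and 2 KO libraries for each organ, 20 libraries in all, with total counts between 15897446 and 44508197. The labels name no infection and no interferon treatment in either group. With 2 libraries in a group, p-values measure only the spread between these samples, and whether organs came from the same animals is not given in the sources used here. Nsun6 was counted over all of its exons together, which does not check the deletion of exons 3 and 4. It had 9.67 and 6.09 CPM (counts normalized for library depth within an organ) in WT small intestine against 9.13 and 5.09 in KO, 4.68 and 3.18 against 2.67 and 2.92 for liver, and 8.77 and 6.59 against 5.99 and 10.3 for spleen. In the kidney it had 6.32 and 6.55 against 4.38 and 3.71, and in the heart 6.62 and 6.27 against 5.57 and 5.11. In heart, kidney, and liver the KO libraries lay below WT, and no difference passed the edgeR test in any organ (adjusted p at least 0.999).

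Type I interferons signal through the receptor chains Ifnar1 and Ifnar2 to a complex with Stat2 and Irf9, which binds a DNA element called the interferon-stimulated response element (ISRE). Interferon gamma signals through its own receptor and acts on a different element, the gamma-activated site (GAS). The induced genes include the Ifit and Oas families, which recognise or help degrade foreign RNA, the antiviral Mx GTPases, cytosolic sensors of RNA and DNA, and the immunity-related and guanylate-binding GTPases that act on intracellular pathogens. Many of these genes have a low tonic level in healthy tissue. The members were grouped by role into the Ifit family (4 genes), the Oas family (6), Mx GTPases (2), sensors of RNA and DNA (5), transcription factors (4), GTPases that lean towards interferon gamma (5), PARP and ubiquitin regulators (4), other effectors (9), and 1 chemokine.

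Of the 5 members with the smallest p-values in the spleen and the 5 in the liver, the promoters of those that held the ISRE letters are shown, because the ISRE is the element through which type I interferons induce such genes. Irf7 and Cmpk2, which held none, and Zbp1, which was not matched, are not shown. The 150 bases before the start of each gene are printed 5′ to 3′ on the strand of the gene, with capitals for letters matching GAAANNGAAA, or TTTCNNTTTC where the element lies on the other strand; overlapping matches run together. Sequences are from RefSeq for build GRCm38.p6.
Rsad2: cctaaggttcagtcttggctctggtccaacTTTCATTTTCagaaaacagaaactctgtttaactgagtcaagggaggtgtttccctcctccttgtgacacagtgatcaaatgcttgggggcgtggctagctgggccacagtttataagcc
Oas3: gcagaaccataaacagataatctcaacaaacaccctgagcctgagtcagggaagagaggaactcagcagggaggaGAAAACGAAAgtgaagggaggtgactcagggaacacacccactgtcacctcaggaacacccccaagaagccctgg
Ifit1: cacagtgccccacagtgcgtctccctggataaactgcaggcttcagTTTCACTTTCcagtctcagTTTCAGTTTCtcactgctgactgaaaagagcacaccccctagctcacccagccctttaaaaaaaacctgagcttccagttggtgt
Igtp: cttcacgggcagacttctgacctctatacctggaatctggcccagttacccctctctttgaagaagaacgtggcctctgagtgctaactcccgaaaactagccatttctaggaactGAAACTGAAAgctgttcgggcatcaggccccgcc
Bst2: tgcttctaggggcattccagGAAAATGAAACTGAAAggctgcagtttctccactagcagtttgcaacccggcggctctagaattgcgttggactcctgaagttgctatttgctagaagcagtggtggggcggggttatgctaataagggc
Oas1a: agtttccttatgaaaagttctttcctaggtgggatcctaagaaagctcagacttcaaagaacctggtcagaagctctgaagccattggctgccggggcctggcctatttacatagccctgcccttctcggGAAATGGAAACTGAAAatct
Rsad2 was read from chr12:26456453-26456602 on the minus strand. Oas3 was read from chr5:120777660-120777809 on the minus strand. Ifit1 was read from chr19:34640739-34640888 on the plus strand. Igtp was read from chr11:58199406-58199555 on the plus strand. Bst2 was read from chr8:71537473-71537622 on the minus strand. Oas1a was read from chr5:120907526-120907675 on the minus strand. Ifit1 held 2 separate matches on the other strand, which began 104 and 85 bases before the start. In Bst2 a pair of overlapping matches began 130 and 124 bases before the start, and in Oas1a 20 and 14 bases before it. Rsad2 held 1 match 120 bases before the start, on the other strand, Oas3 held 1 at 75 bases, and Igtp 1 at 34 bases. RefSeq promoters of 300 bases (250 before and 50 after the start) were matched for 30 of the 40 members, and 18 of these 30 (60%) held the ISRE letters on either strand. Of 27025 genes with a promoter in the same table, 3.99% held them, as did 3.44% of the 32851 single promoters. The letters TTCNNNGAA, a core of the GAS, were found in 7 of the 30 members (23.3%) and in 9.55% of all genes. A match is a run of letters and not a measured site, and a member without a match lacks only these letters in this window.

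Several libraries stood apart by markers of tissue and cell type, given as RPKM (counts per kilobase of exon, normalized for library depth across all 20 libraries). In the small intestine the 4 genes of the distal list, led by the bile acid-binding Fabp6, summed to 14865 RPKM in WT replicate 1 and 14094 in KO replicate 1, but to 1.61 and 2.85 in WT replicate 2 and KO replicate 2. The 5 proximal genes, led by Fabp1 in the replicates numbered 2, summed to 170 and 710 in the replicates numbered 1 against 16748 and 20957. The labels give no segment, and each replicate number held 1 WT and 1 KO library of like markers. KO replicate 1 of the small intestine also had the lowest sums of B cell genes (0.669, with 1 of 5 genes at 0 counts, against 113, 5.94, and 24.8 in WT replicate 1, WT replicate 2, and KO replicate 2), T cell genes (5.99 against 47.3, 78.9, and 60.4), and macrophage and monocyte genes (34.6 against 151, 101, and 168). Their most abundant genes there were Cd79b at 0.532, Cd3g at 1.73, and Lyz2 at 19.7 RPKM. The 5 heart genes summed to 141 in that library and to at most 4.48 in the other intestinal libraries. In the spleen, WT replicate 2 carried 1412 RPKM of liver genes, mostly Alb at 1146, against 3.26 in WT replicate 1 and 50.8 and 70.3 in KO. The 6 erythroid genes summed to 218 and 249 in WT spleen and to 666 and 756 in KO spleen, and 5 of them were called higher in KO. In WT replicate 2 of the heart, B cell genes summed to 11.9, against at most 2.87 in the other heart libraries. The WT kidney libraries differed in kidney markers: Slc34a1 had 898 and 111 RPKM in WT against 586 and 325 in KO, whereas Umod had 326 and 671 against 842 and 676. For each labelled organ, the 5 defining genes summed higher in its own libraries than in those of any other organ.

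In WT tissue, the interferon-stimulated genes had higher median levels in the small intestine and the spleen than in the heart and the kidney, both as RPKM and as TPM, whereas the lead of the small intestine over the spleen was lost when organs were compared by library totals alone. The median level over the 40 genes was 14.9 RPKM in the small intestine, with library medians of 11.9 and 14.3. It was 9.12 in the spleen (9.99 and 8.10), 6.73 in the liver (7.09 and 6.5), 4.61 in the heart (5.35 and 3.87), and 3.70 in the kidney (3.22 and 3.64). No neighbouring organs in this order overlapped in their library medians. The order changed with the scaling. As TPM, where each library is scaled to its own sum, the medians were 36.9 in the small intestine, 36.1 in the spleen, 11.8 in the liver, 11.7 in the kidney, and 11.4 in the heart, so the small intestine and the spleen were nearly level and the kidney and the heart changed places. Of the 40 genes, 18 had their highest WT mean in the small intestine, 10 in the spleen, 8 in the liver, 3 in the kidney (Ifit3b, Gbp3, and Ifi44), and 1, Ifit2, in the heart. In 23 of the 40, the lowest mean was in the kidney. The KO libraries had medians of 7.72 and 10.8 RPKM in the small intestine, 10.3 and 10.3 for spleen, 8.63 and 7.31 for liver, 5.05 and 5.42 for heart, and 3.57 and 3.80 for kidney, so the small intestine overlapped with the spleen and the liver in KO.

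**Figure D1:**
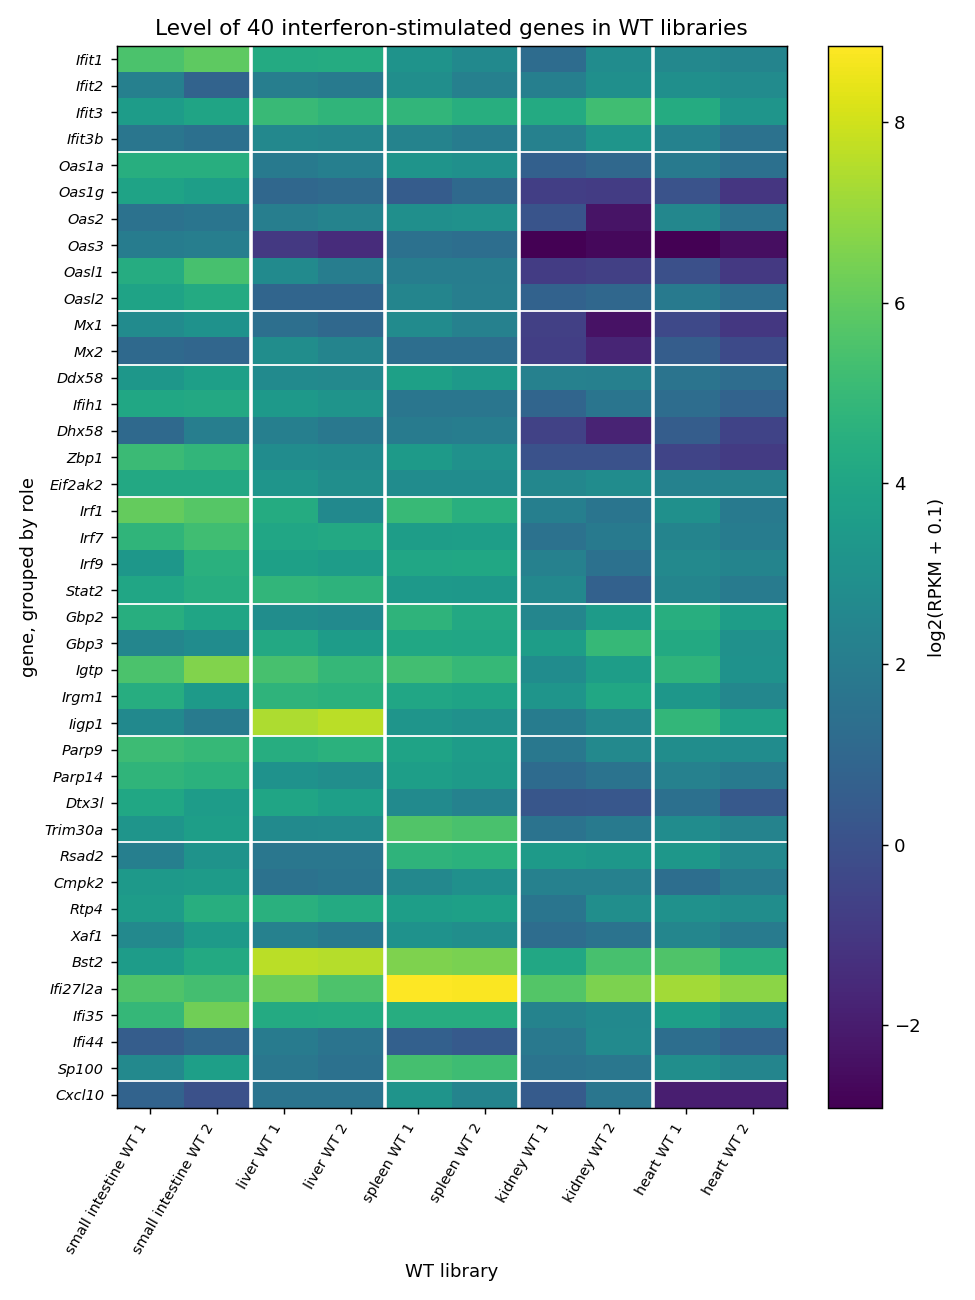
Level of the 40 interferon-stimulated genes (rows, grouped by role) in the 10 WT libraries (columns, grouped by organ), as colour on a log2(RPKM + 0.1) scale. Ifi27l2a in the spleen (448 RPKM on average) and Bst2 and Iigp1 in the liver (193 and 181) are the brightest cells, and Oas3 in the kidney and heart is among the darkest.

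The Ifit family did not share a single pattern of levels. Ifit1 had 45.7 and 61.3 RPKM in WT small intestine, 19.2 and 19.8 for liver, 8.76 and 6.33 for spleen, 2.23 and 6.95 for kidney, and 5.90 and 5.17 for heart. Its intestinal libraries lay above those of every other organ, whereas its kidney libraries overlapped with those of the spleen and the heart. Ifit2 spanned only 2.30-fold between its highest organ, the heart (7.08 RPKM), and its lowest, the small intestine (3.08). Ifit3 and Ifit3b, close copies whose reads may be split between them, were also lowest in the small intestine, at 13.5 and 2.84 RPKM. In the Oas family, which makes the 2-5A that activates RNase L or resembles the enzymes that do, Oas1a, Oas1g, Oas3, Oasl1, and Oasl2 were highest in the small intestine. Oas3 ranged widest of all members, 89.3-fold, from 3.96 and 4.18 RPKM in the small intestine and 2.70 and 2.40 for spleen to 0.419 and 0.270 for liver, 0.0326 and 0.0585 for kidney, and 0.0352 and 0.0816 for heart. The kidney values rest on 8 and 10 counts. Oas1a and Oas1g are near-identical copies and are likewise uncertain as single genes. Oasl1 ranged 63.6-fold, from 31.4 RPKM in the small intestine to 0.494 in the kidney.

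Among the sensors, Zbp1, which detects Z-form nucleic acids, had 33.8 and 28.4 RPKM in the small intestine, 11 and 8.11 for spleen, 6.86 and 6.55 for liver, 0.938 and 0.950 for kidney, and 0.616 and 0.452 for heart. No organs overlapped in this gene. Ddx58 (RIG-I) spanned 4.65-fold and the kinase Eif2ak2 (PKR) 3.72-fold, a narrower range than that of Zbp1 (58.2-fold). Of the transcription factors, Irf1 had 67.6 and 52.6 RPKM in the small intestine, 32.1 and 22.9 for spleen, 19.8 and 6.32 for liver, 7.93 and 3.77 for heart, and 4.37 and 3.07 for kidney. It shares 796 exon bases, 20% of its length, with Gm17334, the largest overlap of a member; 15 members share some bases with another gene. Irf7, the inducible factor for interferon genes, had 27.3 and 37.9 RPKM in the small intestine and 2.76 and 3.65 for kidney.

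The liver was set apart by a pair of genes. Iigp1, a GTPase that acts on parasite vacuoles, had 167 and 195 RPKM in the liver, 28.8 and 14 for heart, 9.29 and 8.09 for spleen, 6.24 and 3.87 for small intestine, and 3.94 and 6.01 for kidney. Bst2 (tetherin), which holds enveloped viruses at the cell surface, had 200 and 187 RPKM in the liver, 95.9 and 87.9 for spleen, 48.7 and 24.4 for heart, 17.3 and 42.2 for kidney, and 11.9 and 18.8 for small intestine. Both were at or near their lowest in the small intestine, where the median of the list was highest on this scale. In the spleen the highest level of any member in any organ was that of Ifi27l2a, with 459 and 438 RPKM, against 150 and 111 for heart, 51.6 and 92.0 for kidney, 74.1 and 47.4 for liver, and 49.0 and 40.3 for small intestine. Trim30a, a regulator of innate signalling, had 50.2 and 43.7 RPKM in the spleen and at most 12.5 elsewhere. The nuclear body gene Sp100 had 40.8 and 37.0 there and at most 13.1 elsewhere. Cxcl10, the chemokine of the list, was lowest in the heart at 0.166 and 0.159 RPKM and highest in the spleen at 8.97 and 5.11. Igtp was the member with the highest level in the small intestine (44.9 and 96.4 RPKM) and Cxcl10 the lowest there (1.66 and 0.898), whereas Ifi44 was the lowest in the spleen (1.53 and 1.23).

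To compare organs gene by gene, each organ was set against the mean of the other 4 in the 10 WT libraries with edgeR, and genes with a fold over 2 and an adjusted p under 0.1 (Benjamini-Hochberg) were called among 21742 genes. In the small intestine 21 members were called higher and 4 lower (Iigp1, Bst2, Ifi27l2a, and Gbp3), against 20.3% and 14.2% of all genes. The strongest were Zbp1 (log2 difference 3.69 ± 0.20 SE, adjusted p = 7.14e-06), Oasl1 (4.28 ± 0.32), and Oas3 (4.17 ± 0.32). In the kidney 26 members were called lower and 1, Ifi44, higher, against 8.28% and 17.2% of all genes. In the heart 16 were called lower and none higher, against 14.5% and 20.3% of all genes, among them Cxcl10 (-4.09 ± 0.63) and Zbp1 (-3.64 ± 0.31). In the spleen 14 were called higher and 2 lower (Ifi44 and Iigp1), against 21.2% and 16.1%, and in the liver 12 were called higher and 4 lower (Rsad2, Oasl2, Sp100, and Gbp2), against 14.6% and 14.3%. Iigp1 had a log2 difference of 4.46 ± 0.30 and Bst2 of 2.47 ± 0.33 in the liver. Median log2 differences over the members were 1.02 in the small intestine, 0.55 in the spleen, 0.49 in the liver, -0.89 in the heart, and -1.64 in the kidney, beside -0.03, 0.02, -0.19, -0.12, and 0.06 over all genes.

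Calls in the spleen and the liver depended on the size factors that make organs comparable. With library totals alone, the median of all genes moved to 0.75 in the spleen and -0.91 in the liver, and the calls changed to 30 higher and none lower in the spleen, beside 35.9% and 8.50% of all genes, and to 5 higher and 9 lower in the liver, beside 9.66% and 27.4%. The median over the members was then 1.30 in the spleen, above the 0.92 of the small intestine, and reversed in the liver, to -0.21. Leaving out WT replicate 1 of the spleen, which left the library carrying liver transcripts as the only WT spleen library, gave 8 members called higher in the spleen, beside 13.1% of all genes. Leaving out WT replicate 2 of the heart gave 9 called lower in the heart, beside 7.50%.

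KO and WT were then compared within each organ, to ask whether loss of Nsun6 went with a change of the interferon programme. Only Rsad2 in the spleen was called, out of 40 members tested in the small intestine, liver, and spleen and 39 in the kidney and heart, where Oas3 and Cxcl10, respectively, did not pass the filter on low counts. The same rule called 0% of 17680 genes for small intestine, 0.0509% of 15729 for liver, 0.223% of 18834 for spleen, 0% of 17550 for kidney, and 0% of 16632 for heart. DESeq2 likewise called Rsad2 in the spleen and no other member in any organ. At an unadjusted p under 0.05 in edgeR, 6 members were higher and none lower in the liver, beside 2.74% and 1.96% of all genes. In the spleen, too, 6 were higher and none lower, beside 4.32% and 0.828%. In the small intestine 4 were lower and none higher, beside 0.617% and 1.77%, and no member reached this p in the kidney or the heart. The direction of the medians differed by organ: over the members the median log2 fold change was -0.54 for small intestine, 0.20 for liver, 0.15 for spleen, -0.01 for kidney, and 0.12 for heart, beside 0.00, 0.00, 0.01, -0.03, and -0.01 over all genes tested.

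**Figure D2:**
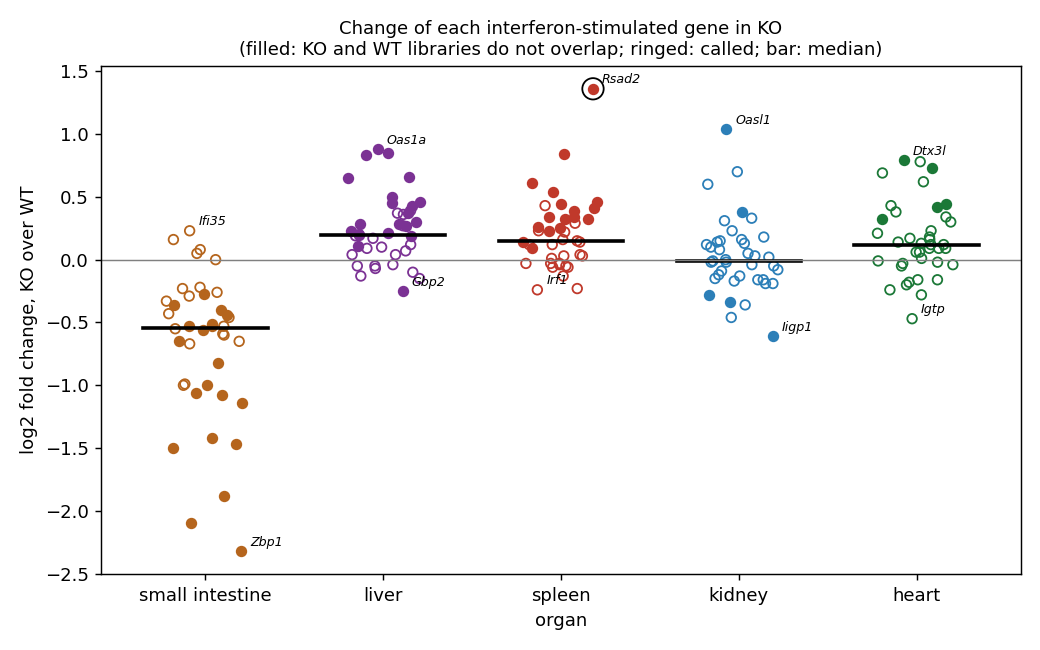
Log2 fold change of KO over WT (vertical axis) for each of the 40 interferon-stimulated genes in 5 organs (horizontal axis); points are genes, filled where the 2 KO and 2 WT libraries do not overlap, and the bar is the median. The small intestine is shifted below 0 (median -0.54), the liver (0.20) and spleen (0.15) lie slightly above it, and the ringed Rsad2 in the spleen is the only gene called.

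In the spleen, Rsad2 stood alone. This gene encodes viperin, which makes a chain-terminating nucleotide. It measured 169 and 159 CPM in WT against 413 and 429 in KO, so the KO values lay close together and far above both WT values. The fold was 2.57 (log2 fold change 1.36 ± 0.15 SE, edgeR adjusted p = 0.0656). Rsad2 was no longer called when KO replicate 2 was left out (adjusted p = 0.117) or when all 20 libraries were fitted together (adjusted p = 1), although its log2 fold change was 1.34 and 1.32 there. Cmpk2, a nucleotide kinase, measured 35.6 and 48.9 CPM in WT against 60 and 62.5 in KO (0.54 ± 0.20, adjusted p = 0.784). Oas3 had 27.6 and 25.6 in WT against 54.5 and 41.0 in KO (0.84 ± 0.20, adjusted p = 0.275). For both genes the groups did not overlap, but neither passed the test. Ifit1 measured 33.6 and 25.4 CPM in WT against 38.5 and 51.4 in KO (0.61 ± 0.22, adjusted p = 0.795), and Irf7 had 66.4 and 72.3 in WT against 106 and 81.4 in KO (0.44 ± 0.18, adjusted p = 0.941).

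Across the list in the spleen, 30 members had a positive and 10 a negative log2 fold change. Both KO libraries lay above both WT libraries in 17 of 40 members and below them in none, beside 17.0% and 14.4% of all genes. The non-overlapping members included 3 of 4 in the Ifit family (median log2 fold change 0.37), 3 of 5 sensors (Ifih1, Dhx58, and Eif2ak2; family median 0.32), 5 of 9 other effectors (0.23), 2 of 6 in the Oas family, and 2 of 4 transcription factors. The GTPases leaning towards interferon gamma had a median of 0.03, with 1 of 5 non-overlapping, Irgm1. Iigp1 and Igtp were at -0.13 and -0.06. Leaving out WT replicate 2, the library with liver transcripts, gave a median of 0.12 over the members, and leaving out WT replicate 1 gave 0.23. All 6 erythroid genes had a positive log2 fold change in the same KO libraries (median 1.62), and 5 of them were called. Other marker lists held no called gene: log2 fold changes were positive for 5 of 5 plasmacytoid dendritic cell genes (median 0.37) and 8 of 9 macrophage and monocyte genes (0.14), and negative for 5 of 5 B cell genes (-0.30), 6 of 6 neutrophil genes (-0.46), and 5 of 5 endothelial genes (-0.40). T cell genes were positive in 5 of 6 (0.13) and dendritic cell genes negative in 5 of 5 (-0.07). The plasmacytoid list summed to 30.1 and 27.9 RPKM in WT and to 34.6 and 33.2 in KO, led by Cox6a2 in WT and Klk1 in KO. Neutrophil genes, led by S100a9, summed to 348 and 676 in WT and to 214 and 523 in KO. Endothelial genes, led by Pecam1, summed to 46.2 and 44.3 in WT and to 40.1 and 27.1 in KO, without overlap. The part of these cells in the values of the members was not tested. In bulk tissue, a change in the share of a cell type and a change in RNA per cell cannot be told apart.

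In the liver no member was called. The smallest p was that of Zbp1, with 15.7 and 15.2 CPM in WT against 30.9 and 24.1 in KO (log2 fold change 0.83 ± 0.20 SE, edgeR adjusted p = 0.775). Igtp measured 55.6 and 39.7 CPM in WT against 75.8 and 96.0 in KO (0.85 ± 0.23, adjusted p = 0.871). Without WT replicate 1 it was called, at 1.11 and an edgeR adjusted p of 0.0207, in a fit that called 0.807% of all genes higher. Bst2, already the most abundant member per length in this organ, measured 117 and 112 CPM in WT against 178 and 179 in KO, with replicates closer together than in any other of these 5 genes in KO (0.65 ± 0.19, adjusted p = 0.947). Ifit1 had 33.0 and 34.7 in WT against 61.9 and 45.1 in KO (0.66 ± 0.21, adjusted p = 0.947). Oas1a had 4.37 and 5.42 in WT against 10.9 and 7.02 in KO (0.88 ± 0.30, adjusted p = 0.974). In all 5 genes the KO libraries lay above the WT libraries.

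Over the whole list in the liver, 32 members had a positive and 8 a negative log2 fold change. The KO libraries lay above the WT libraries in 19 of 40 members and below them in 1, Gbp2, beside 17.2% and 16.1% of all genes. The sensors had 4 of 5 non-overlapping members (median 0.28), the transcription factors 3 of 4 (0.15), the GTPases leaning towards interferon gamma 3 of 5 (0.28), and the other effectors 5 of 9 (0.23). The PARP and ubiquitin regulators had none of 4, with a median of -0.04. KO replicate 1 had the highest value of the 4 liver libraries in 24 of 40 members and WT replicate 2 the lowest in 21. Leaving out KO replicate 1 brought the median to 0.09, and leaving out WT replicate 2 to 0.11. B cell genes summed to 4.44 and 2.62 RPKM in WT and 3.51 and 5.14 in KO liver, and macrophage and monocyte genes to 271 and 341 in WT against 364 and 362 in KO, with Lyz2 the most abundant in each library. Other marker lists were lower in both KO liver libraries than in both WT libraries. The 6 neutrophil genes, led by S100a9, summed to 11.4 and 8.9 RPKM in WT against 4.02 and 4.01 in KO, with 2 or 3 of the 6 at 0 counts in every library, and the 2 that could be tested had a median log2 fold change of -1.39. T cell genes, led by Trac except in KO replicate 1 (Cd3d), summed to 4.44 and 4.23 in WT and to 2.45 and 3.21 in KO (1 higher and 3 lower of 4 tested, median -0.19). Dendritic cell genes, led by Clec9a, had 5.68 and 5.63 in WT and 5.07 and 5.25 in KO, with all 5 log2 fold changes negative (-0.28). Heart genes, led by Myl2, had 9.28 and 1.52 in WT and 0.421 and 0.37 in KO (3 of 3 tested lower, median -3.63). Plasmacytoid dendritic cell genes had 6.26 and 1.8 in WT and 1.34 and 1.42 in KO (1 higher and 2 lower of 3 tested, median -0.11). Their sum was led by Cox6a2 at 4.82 RPKM in WT replicate 1, the liver library with the most heart transcripts, and by Klk1 in the others. Cox6a2 had 7493 and 3758 RPKM in WT heart. Siglech of the same list overlapped in the liver, at 0.619 and 0.392 in WT against 0.344 and 0.533 in KO. Erythroid genes, led by Alas2, had 11.6 and 14.2 in WT and 10.8 and 10.8 in KO (2 of 2 tested lower, median -0.33). Macrophage and monocyte, proximal intestine, distal intestine, and kidney lists were higher in both KO libraries than in both WT libraries. None of these genes was called, and the part of these cells in the values of the members was not tested.

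**Figure D3:**
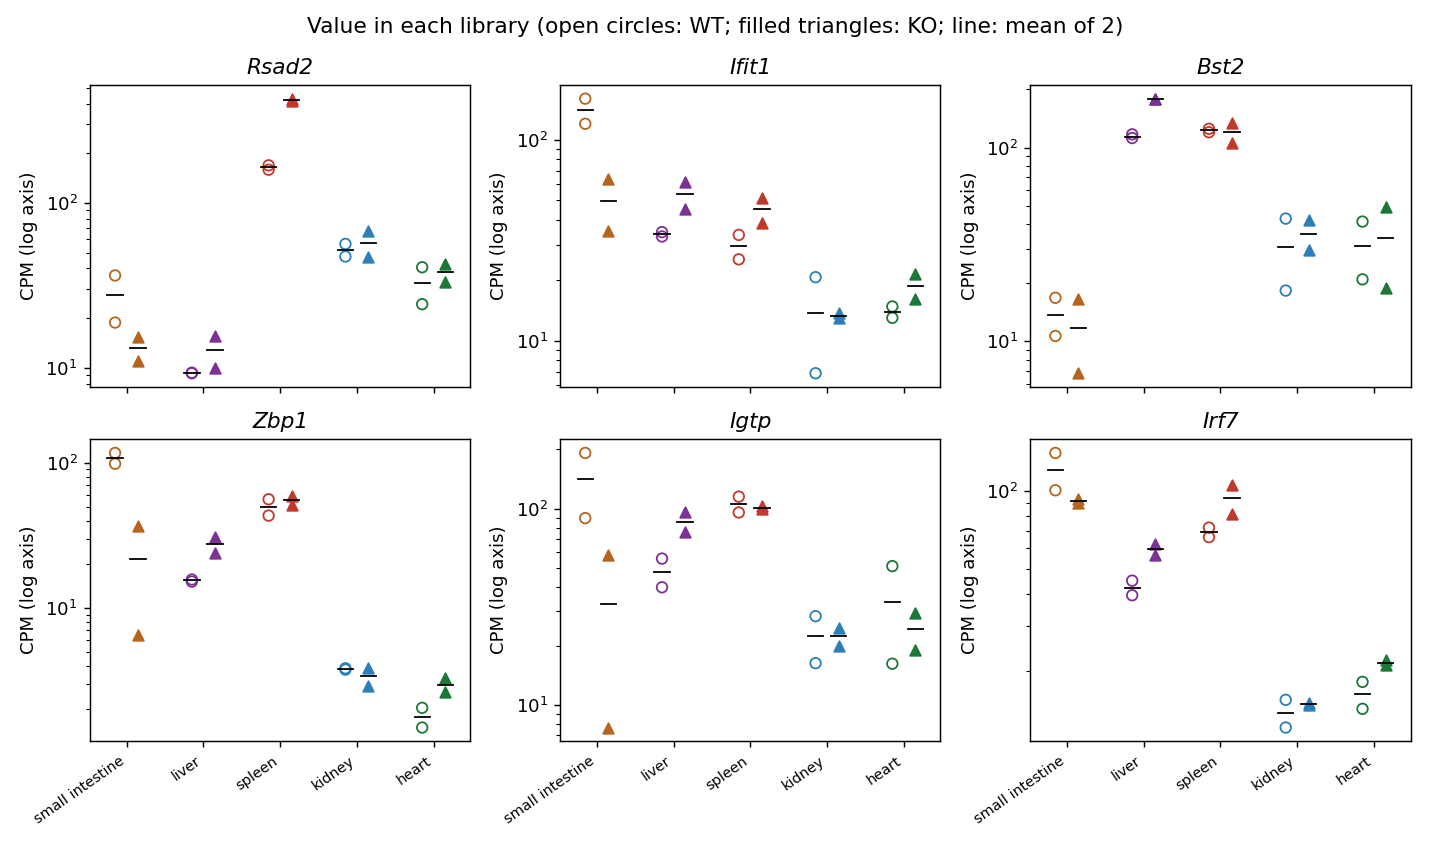
CPM (log axis) of 6 members in each library of the 5 organs; open circles are WT, filled triangles KO, and the line is the mean of 2 libraries. Rsad2 in KO spleen (413 and 429) stands apart from WT spleen (169 and 159), and Ifit1, Zbp1, and Igtp are lower in KO small intestine and higher in KO liver than in WT.

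The small intestine had the widest shift of the list and the widest spread between replicates, with a biological coefficient of variation of 0.602 against 0.238 in the liver and 0.310 in the spleen. This spread holds the difference between the replicates with distal and those with proximal markers. With the replicate number as a block, the lowest edgeR adjusted p of a member was 0.69 (Irgm1). Ifit1 measured 120 and 160 CPM in WT against 35.2 and 63.6 in KO (log2 fold change -1.50 ± 0.41 SE, edgeR adjusted p = 1). Ifi44 had 8.38 and 11.5 in WT against 1.88 and 3.53 in KO (-1.88 ± 0.54, adjusted p = 1). Gbp2, a guanylate-binding protein, had 54.9 and 39.6 in WT against 17.6 and 25.1 in KO (-1.14 ± 0.35, adjusted p = 1). In these 3 genes the KO libraries lay below the WT libraries under either number. Zbp1 had the largest difference of the list, with 117 and 98.6 CPM in WT against 6.56 and 36.6 in KO (-2.32 ± 0.87, adjusted p = 1), and Igtp had 89.4 and 192 in WT against 7.66 and 57.8 in KO (-2.10 ± 1.05, adjusted p = 1). In Zbp1 and Igtp the low value of KO replicate 1 carried much of the difference: without that library the log2 fold changes were -1.55 and -1.28, and without KO replicate 2 they were -4.07 and -4.23.

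Of the 40 members, 36 had a negative and 4 a positive log2 fold change in the small intestine (Oas1g, Mx1, Cmpk2, and Ifi35). The KO libraries lay below the WT libraries in 20 members and above them in none, beside 11.6% and 13.6% of all genes. The GTPases leaning towards interferon gamma had the lowest median of the roles with more than 1 gene, -1.42, with 4 of 5 non-overlapping, followed by the Ifit family at -0.75. The median over the members was -0.68 for KO replicate 1 over WT replicate 1, both with distal markers, and -0.54 for KO replicate 2 over WT replicate 2, both with proximal markers. In 30 members KO was the lower of the pair under both numbers, and in none the higher under both. Without KO replicate 1, the library low in B cell, T cell, and macrophage genes, the median was -0.47, with 34 members lower. Without KO replicate 2 it was -0.94. All 5 B cell genes and all 6 T cell genes had a negative log2 fold change, with medians of -2.81 and -0.86, whereas 5 of the 9 macrophage and monocyte genes had a positive one (median 0.22). Dendritic cell genes, led by Itgax, summed to 3.6 and 4.74 RPKM in WT, 0.901 in KO replicate 1, and 5.77 in KO replicate 2, with 4 of 5 log2 fold changes negative (-0.51). The plasmacytoid list also had 4 of 5 negative (-0.92), but it was led by Klk1 at 60 RPKM or more in each library. All 5 endothelial genes had a positive log2 fold change (1.12), with sums of 3.94 and 3.67 in WT, 3.3 in KO replicate 1, and 11.5 in KO replicate 2, led by Pecam1 in WT replicate 1 and by Egfl7 in the others. All 5 heart genes had a positive one as well (5.41), with the sum of 141 RPKM in KO replicate 1 given above. No gene of these lists was called. The part of these cells in the lower levels was not tested.

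**Figure D4:**
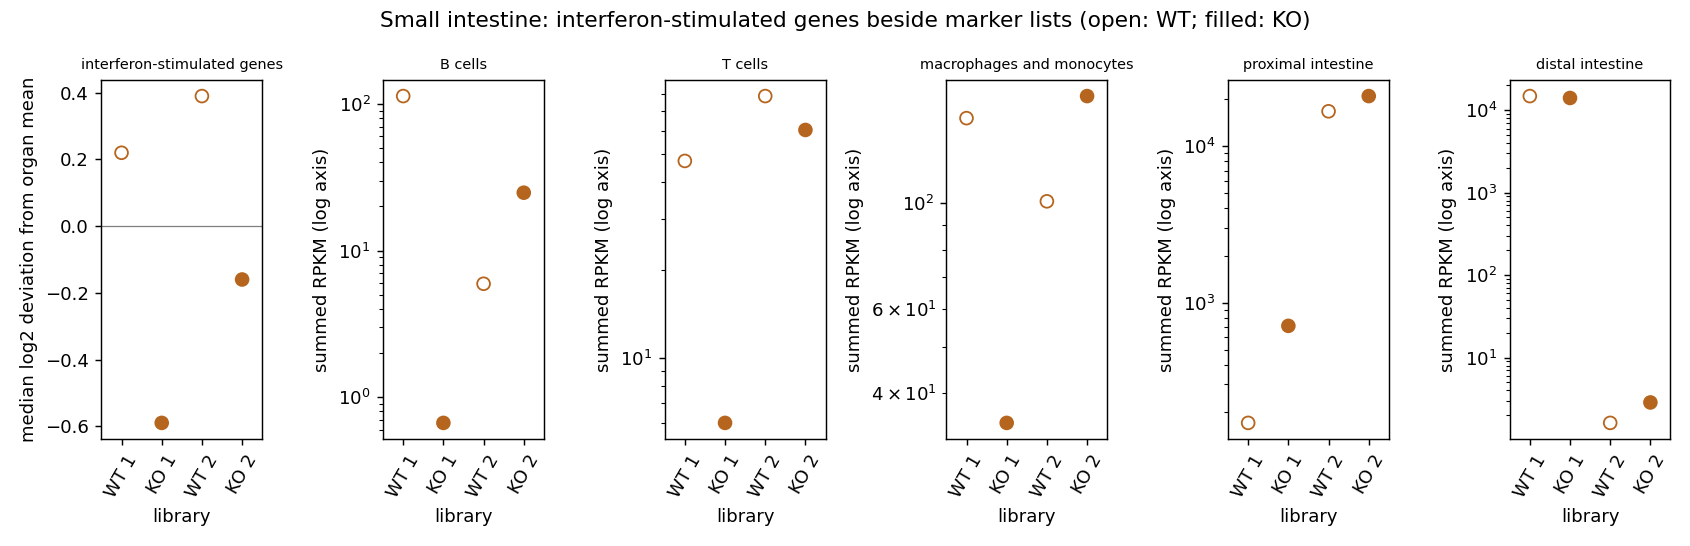
The 4 small intestine libraries (horizontal axis; open circles WT, filled circles KO): median log2 deviation of the interferon-stimulated genes from the organ mean (left panel), and summed RPKM of marker lists on log axes (other panels). KO replicate 1 is lowest for the interferon-stimulated genes (-0.59) and for B cell, T cell, and macrophage genes, while proximal and distal markers separate the replicate numbers and not the genotypes.

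In the kidney 18 of 39 members had a positive log2 fold change (median -0.01), and in the heart 27 of 39 did (median 0.12), beside 47% and 48.2% of all genes. Oasl1 in the kidney measured 1.40 and 1.53 CPM in WT against 3.04 and 3.03 in KO (log2 fold change 1.04 ± 0.50 SE, edgeR adjusted p = 1), which rest on 42 and 33 counts in WT against 77 and 76 in KO. Iigp1 had 26.6 and 39.3 in WT against 21.7 and 21.6 in KO (-0.61 ± 0.36, adjusted p = 1), and Cmpk2 had 22.4 and 22.1 against 24.7 and 33.0 (0.38 ± 0.35, adjusted p = 1). KO libraries lay above WT libraries in 2 members and below in 3, beside 10.3% and 11.2% of all genes. In the heart, Dtx3l, a ubiquitin ligase, measured 13.9 and 6.56 CPM in WT against 17.7 and 17.5 in KO (0.79 ± 0.40, adjusted p = 1). Ifi27l2a had 65.4 and 48.3 against 138 and 57.3 (0.78 ± 0.43, adjusted p = 1), an overlap of the groups in which KO replicate 1 alone was high. Zbp1 had 2.05 and 1.5 against 3.27 and 2.62 (0.73 ± 0.48, adjusted p = 1). KO libraries lay above WT libraries in 5 members and below in none, beside 7.56% and 9.66% of all genes.

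Much of the difference in these organs came from single WT libraries. WT replicate 2 of the heart was the lowest of the 4 libraries in 28 of 39 members, with a median log2 deviation of -0.38 from the organ mean, beside 0.03 over all genes tested. Without it the median log2 fold change was -0.06, and without WT replicate 1 it was 0.53. Within a number, the median was -0.06 for KO over WT replicate 1 and 0.38 for KO over WT replicate 2. Both heart replicates numbered 2 had higher total counts than those numbered 1, and the part of this difference was not tested. In the heart, WT replicate 2 also had the highest sums of B cell, T cell, and neutrophil genes. T cell genes, led by Trac, summed to 2.19 and 5.2 RPKM in WT against 1.08 and 0.775 in KO, and the 5 tested all had a negative log2 fold change (median -2.22). Neutrophil genes summed to 5.61 and 23.9 against 4.6 and 4.47, with S100a9 the most abundant except in KO replicate 2 (S100a8), and the 3 tested were all negative (-1.65), as were the 5 B cell genes (-2.69). Macrophage and monocyte genes, led by Lyz2, overlapped, at 626 and 499 against 699 and 403. None of these genes was called, and their part in the values of the members was not tested. In the kidney, WT replicate 1 was lowest in 19 of 39 members (deviation -0.17). WT replicate 2 was highest in 19 (0.15) but lowest in 9, among them Oas2, Stat2, Mx1, and Dhx58. Oas2 had 156 counts in WT replicate 1 and 11 in WT replicate 2. Leaving out WT replicate 1 gave a median of -0.16, and leaving out WT replicate 2 gave 0.19. WT replicates 1 and 2 also had the lowest and the highest kidney sum of macrophage and monocyte genes, led by Lyz2, at 55.5 and 125 RPKM, against 94.6 and 107 in KO. T cell genes, led by Trac, did not overlap in the kidney, at 3.01 and 4.18 in WT against 5.32 and 4.75 in KO. Neither did neutrophil genes, led by S100a9 and with 3 of 6 at 0 counts in each library (3.26 and 4.82 against 1.82 and 2.04), or erythroid genes (10.5 and 12 against 13.8 and 15.9). All 5 endothelial genes had a positive log2 fold change (median 0.51), with overlapping sums of 26.2 and 31 against 30.3 and 45.5. The part of these cells was not tested either. Leaving out WT replicate 2 of the kidney changed the sign of 18 of 39 members or, in a further 6, took the log2 fold change below 50% of its size. Leaving out 1 WT kidney library also produced calls, 3 without WT replicate 1 (Oas2, Stat2, and Dhx58), beside 14.3% of all genes, and 2 without WT replicate 2 (Gbp3 and Bst2), beside 1.37%, in fits where the remaining WT library had no partner and was taken to vary like the KO libraries. For the other organs, the library whose removal changed most members in sign or size was KO replicate 1 in the small intestine (16 of 40), WT replicate 2 in the liver (14 of 40), and KO replicate 2 in the spleen (12 of 40). The sign of the median stayed the same under every removal in these 3 organs.

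**Figure D5:**
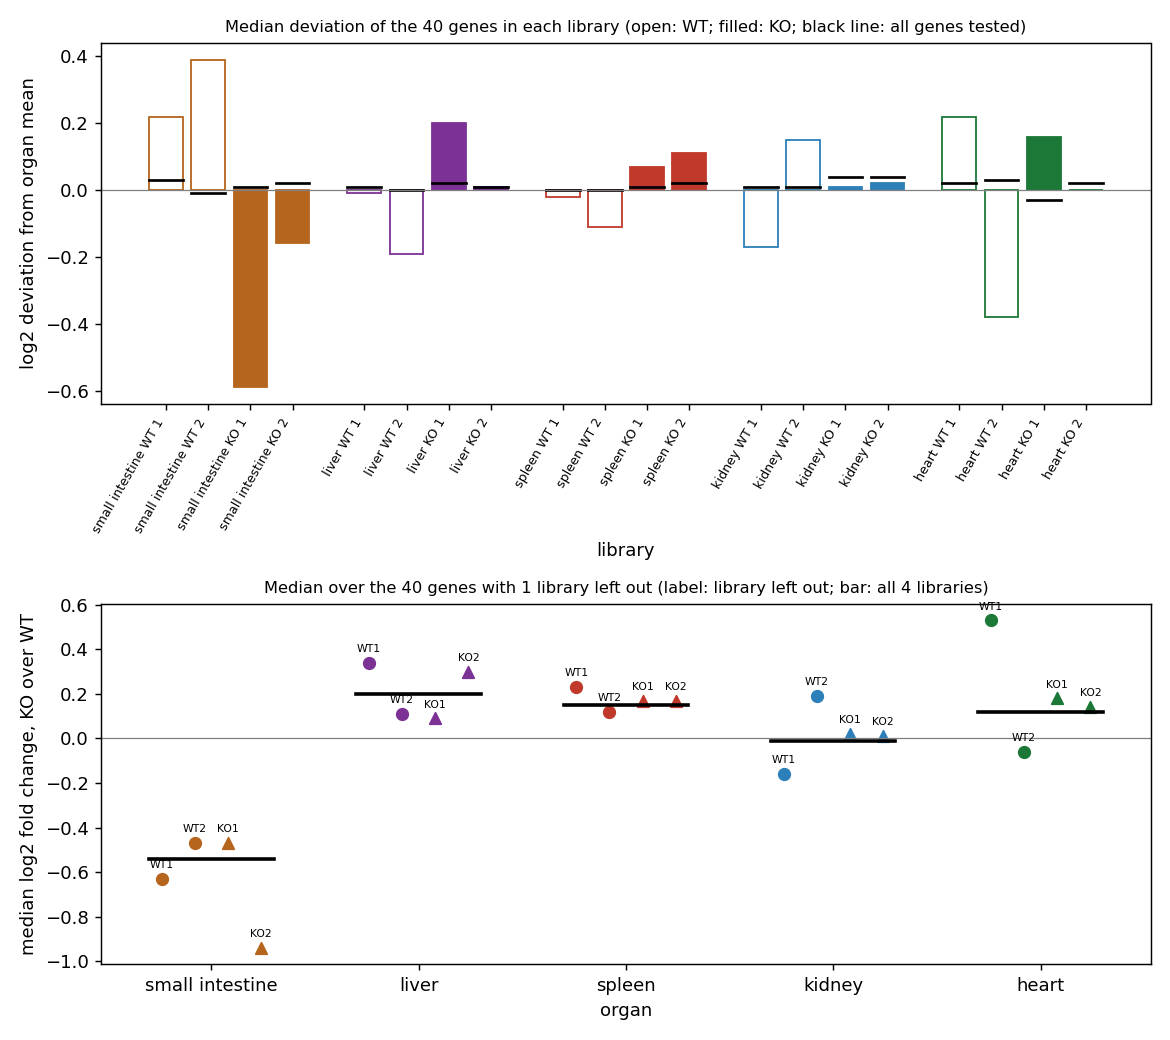
Upper panel: median log2 deviation of the interferon-stimulated genes from the organ mean in each of the 20 libraries (bars open for WT, filled for KO; black lines, all genes tested). Lower panel: median log2 fold change of KO over WT when the labelled library is left out, with bars for all 4 libraries; the heart and kidney medians cross 0 (-0.06 to 0.53 and -0.16 to 0.19), and those of the small intestine, liver, and spleen do not.

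Fitted over all 20 libraries, a KO effect shared by the 5 organs was called for 0.00432% of 23159 genes and for no member. The smallest p-values were those of Cmpk2 (shared log2 fold change 0.35 ± 0.13 SE, edgeR adjusted p = 1), Gbp2 (-0.39 ± 0.17, adjusted p = 1), and Irf7 (0.22 ± 0.12, adjusted p = 1). The median over the members was 0.02, with 21 of 40 positive. The interaction of organ and genotype was called for 0% of genes and for no member, with 5 members at an unadjusted p under 0.05 in edgeR, beside 2.31% of all genes, the smallest being those of Rsad2, Zbp1, and Ifi44, each with an edgeR adjusted p of 1. Without a filter on low counts, 3 members were called for an interaction, beside 2.66% of all genes in that fit. The opposite medians of the small intestine and of the liver and spleen were therefore not shown to differ gene by gene. Without overlap, 15 members were lower in KO small intestine and higher in KO liver or spleen, beside 3.70% of the 14022 genes tested in these organs. Likewise, 11 members were higher in KO in both liver and spleen, beside 3.46% of the 14610 genes tested in both: Ifit1, Ifit3b, Oas1a, Dhx58, Eif2ak2, Irf7, Irf9, Irgm1, Rsad2, Cmpk2, and Xaf1.

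Genes upstream of the list were taken from a separate list of 57, comprising interferon genes, receptors, signal transducers, regulatory factors, sensor adaptors, and inhibitors. Between 34 and 37 of them were tested in each organ, and none was called in any. Their median log2 fold changes were -0.09 for small intestine, 0.03 for liver, -0.03 for spleen, 0.12 for kidney, and 0.01 for heart. Of 19 genes for type I and type III interferons, 15 had 0 counts in all 20 libraries, and the others had 21 counts in all, at most 4 in 1 library, so no change in them was detectable at this depth. Ifng had 330 counts in all, mostly in the spleen, where it was at 3.18 and 1.5 CPM in WT against 2.16 and 1.64 in KO. In the small intestine it was at 0.829 and 0.586 in WT and at 0 and 0.241 in KO.

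No receptor chain or transducer was called. Ifnar1 had 99.5 and 84.3 CPM in WT spleen and 87.7 and 104 in KO, and 25 and 34 against 32.2 and 28.6 for liver. Ifnar2 had 70.3 and 55.2 against 62.7 and 60.2 for spleen, and 7.58 and 14.1 against 3.49 and 14.4 for small intestine, where it followed the replicate number. The upstream genes with the smallest p, none of which passed the test, were Irf2bp2 (log2 fold change 0.52 ± 0.25 SE, edgeR adjusted p = 0.999), Socs3 (0.61 ± 0.36), and Adar (0.35 ± 0.23) in the liver, and Myd88 (-0.26 ± 0.19, adjusted p = 1), Irf5 (-0.26 ± 0.19), and Tlr7 (0.28 ± 0.22) in the spleen. Trex1, a DNA exonuclease that restrains the pathway, is listed at 0 in all libraries, and all of its exon bases are shared with Atrip, so it was not measured by these counts.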

How the data were processed

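RNA was sequenced from 20 libraries. The authors trimmed reads with cutadapt, aligned them with HISAT2 2.1.0 to the mouse genome, and counted them per gene with featureCounts 2.0.1. The header of the count table shows no strand or pair option, whereas the methods state strand-specific counting, so reads of overlapping genes on opposite strands, such as Parp9 and Dtx3l, may not be told apart. The labels give mm10 as the build, and the annotation in the header is also of the mouse, although the methods name a human build. The deposited values were raw read counts per gene, and the deposited table also gave the exon length of each gene. Total counts per library were 15897446 to 44508197 (median 28513950), and their counting error is smaller for abundant genes.

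Each organ was fitted separately with the quasi-likelihood test of edgeR 4.0.16 in R 4.3.3, with TMM factors and its default filter on low counts. Called genes had a fold over 2 and an adjusted p under 0.1, adjusted by Benjamini-Hochberg over all genes tested. WT organs were compared in 1 fit of 10 libraries, and shared and interaction effects in 1 fit of all 20. DESeq2 1.42.0, other size factors and filters, and leaving out each library were alternatives. Tables were made with Python 3.11.15, numpy 2.4.6, and pandas 2.3.3.

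Full values were given for members with the smallest p in each organ (5 in spleen and liver, 3 elsewhere), the 3 smallest of the shared and interaction tests, and the highest and lowest member per organ. Other genes named for their level were chosen after their values were seen. The members and lists were chosen with earlier results of these data known. Some genes of the marker and upstream lists are not reported here by name.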

Additional observations from a re-analysis of the deposited data

Results flagged for a closer look

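In the members listed here, which were among those given with full values, a choice that used their p-values and levels, the KO and WT libraries did not overlap in at least 2 organs and differed in opposite directions. Over the whole list, 15 of 40 members were lower in KO small intestine and higher in KO liver or spleen without overlap, beside 3.70% of 14022 genes. The values are the differences between the log2 fold changes of KO over WT in the organs named. They were not tested pair by pair, and the interaction of organ and genotype had an edgeR adjusted p of 1 for each member. Ifit1 was lower in KO small intestine and higher in KO liver (difference 2.16), spleen (2.11), and heart (1.94). Irf7 had the same directions, with differences of 0.90 for the liver, 0.84 for the spleen, and 0.82 for the heart. Zbp1 differed by 3.15 between liver and small intestine and by 3.05 between heart and small intestine. Igtp differed by 2.95 between liver and small intestine. Rsad2 differed by 2.42 between spleen and small intestine and by 1.51 between liver and small intestine. Oas1a differed by 1.24 for the liver and 0.82 for the spleen, each against the small intestine. Oas3 differed by 1.49 and Ifi44 by 2.29 between spleen and small intestine. Iigp1 differed by 1.70 between liver and small intestine and by 0.89 between liver and kidney. In the small intestine, KO replicate 1 also had the lowest sums of B cell, T cell, and dendritic cell genes, whose part in these differences was not tested.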

How the results depend on the processing

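Of 573 alternative values over 51 results, 533 were labelled as the same, 37 as moved, 2 as losing a call, and 1 as gaining a call. The same meant a median within the replicate spread, a gene that kept its sign and call, or a similar count of called members. The values that moved include the 5 medians as TPM, which were set against RPKM, a different unit. These labels do not cover every change of call. Counts of called members also changed, as did calls of kidney members with 1 WT library left out. No called gene changed sign, but the medians, which carry no test, did: in the kidney and the heart when 1 library was left out, in the kidney with the replicate block, and in WT liver with library totals. Where the cause is not stated, it was not tested. Leaving out 1 library in turn gave medians over the members of -0.94 to -0.47 for small intestine, 0.09 to 0.34 for liver, 0.12 to 0.23 for spleen, -0.16 to 0.19 for kidney, and -0.06 to 0.53 for heart. Members called higher in KO were then 0 to 1 in the liver, 0 to 1 in the spleen, and 0 to 3 in the kidney, beside 0.0121% to 0.912%, 0% to 1.32%, and 0% to 14.3% of all genes. In these fits the WT spleen had 8 to 14 members called higher (13.1% to 23.4% of all genes) and 0 to 2 lower (8.51% to 15.5%), the WT kidney 0 to 4 higher (13.3% to 17.6%), the WT heart 0 to 1 higher (13.1% to 21.2%) and 9 to 17 lower (6.34% to 13.6%), and the interaction 0 to 1 (0% to 0.287%). A library without a partner was assumed to vary like the others. In the spleen 0 members were called in 1 fit of all 20 libraries or at an adjusted p under 0.05. With KO libraries in place of WT, 11 members were called lower in the small intestine (15.4% of all genes), 0 lower in the spleen (18.5%), 2 higher in the kidney (18.3%), and 3 higher in the heart (21.2%). Medians as TPM were 36.9 for small intestine, 11.8 for liver, 36.1 for spleen, 11.7 for kidney, and 11.4 for heart. Without a filter, 3 members were called for an interaction. With library totals alone, chosen after seeing the data, 5 were called higher and 9 lower in the liver and 30 higher and 0 lower in the spleen. WT and KO share replicate numbers. The correlation of deviations was 0.57 for small intestine, 0.04 for liver, 0.01 for spleen, 0.13 for kidney, and 0.37 for heart, and with only 2 pairs in an organ and no label for what a number marks, they were not taken as pairs. In the small intestine the numbers do go with gut segment markers. In the heart they go with total counts, 36090637 in WT and 41763236 in KO under number 2 against 17959542 and 15897446 under number 1. Only the heart libraries numbered 2 had the word pre in their column names, and what it marks is not given. The replicate block changed no call (Rsad2 in spleen, edgeR adjusted p = 0.0673), and the medians were -0.56, 0.21, 0.15, 0.04, and 0.14 in the same order.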
